A study of Mus musculus with 6 samples.

Results

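The 34 genes described here drive, carry out or mark the cell cycle and DNA replication: the MCM helicase and the factors that load it, the replication clamp and nucleotide-making enzymes, the G1 cyclins with their kinases, the mitotic cyclins and kinases, and the proliferation markers Mki67 and Top2a. They were chosen by symbol among the gene probes of the array. All 34 had a probe under that symbol, which made 34 of 31829 gene names and 47 of 39429 probes. Of these, 30 genes (39 probes) stood well above background in a dye channel on at least 3 of 6 arrays and entered the tests, as did 26215 of all gene names.

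The study asked how titanium dioxide nanoparticles in the eye alter gene expression in the retina. Male C57BL/6 mice, 8 weeks old, received nanoparticles or phosphate-buffered saline (PBS) in the vitreous of the right eye, and retinas were collected 7 days later. The nanoparticle groups had a dose labelled PTC or 10 times that dose, labelled 10PTC, and the PBS group was the control, with 12 mice in each group. RNA came from pools of 4 retinas, which gave 3 pools at each dose. Each of the 6 arrays compared a nanoparticle pool in the dye Cy5 with PBS control RNA in the dye Cy3. The dyes were not swapped on any array, so a dye effect and the treatment cannot be told apart. The sources used here do not say whether the control RNA came from a single pool. Values are log2 ratios of nanoparticle over PBS, so that 0 is no difference, and p-values are limma's, adjusted by the Benjamini-Hochberg method over 32490 probes. They rest on the spread of these ratios among arrays. If a single PBS pool served every array, variation between control animals does not enter that spread. If the PBS pools differed between arrays, it does in part, and which holds is not known.

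A cell that divides first makes D cyclins, which act with Cdk4, and then E cyclins, which act with Cdk2; together they release E2F factors that switch on replication genes. The MCM helicase is loaded on DNA, is switched on at the start of replication and unwinds the double helix, while Pcna clamps the polymerases to their template. Cyclin A and the B cyclins act with Cdk1 to take the cell into mitosis, where Aurka, Plk1 and Cdc20 govern the spindle and the separation of chromosomes. Neurons of the adult mouse retina have left the cycle, whereas microglia, endothelial cells and, after injury, Muller glia can enter it or express parts of its program.

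Between 71.0% and 85.5% of gene spots stood well above background on an array, and no spot was saturated. PTC replicates 1 and 2 lay on a slide with 71.7% and 71.0% of spots above background, and PTC replicate 3 and all 10PTC arrays lay on another with 82.1% to 85.5%. All 7 rod photoreceptor genes listed as markers of the tissue were measured. All 7 skeletal muscle genes listed fell at both doses, with medians of -2.89 at PTC and -2.41 at 10PTC. The number of arrays limits the precision of every value.

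PTC replicate 1 stood apart from the other 5 arrays in these genes. The median of the 30 measured genes was 0.36 there, against -0.04 on PTC replicate 2, 0.16 on PTC replicate 3 and 0.07 to 0.09 on the 10PTC arrays. The median of all gene names lay within 0.01 of 0 on each array. Of the 30 genes, 22 (73.3%) were highest on PTC replicate 1, against 24.2% of all gene names. On that array 12 of the 30 lay over 0.5, against 6.49% of all gene names: Mcm3, Mcm4, Mcm6, Ccnb1, Ccnb2, Ccnd1, Ccnd2, Mki67, Rrm2, Birc5, Cdc20 and E2f1. Birc5, Mki67 and Rrm2 lay over 1. The array was also wider over all gene names, of which 2.6% to 3.66% lay over 0.5 on the other arrays. It held the largest shares of all gene names at their highest (24.2%) and at their lowest (25.9%). A single array gives no test of its own, and these counts are a description.

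**Figure D1:**
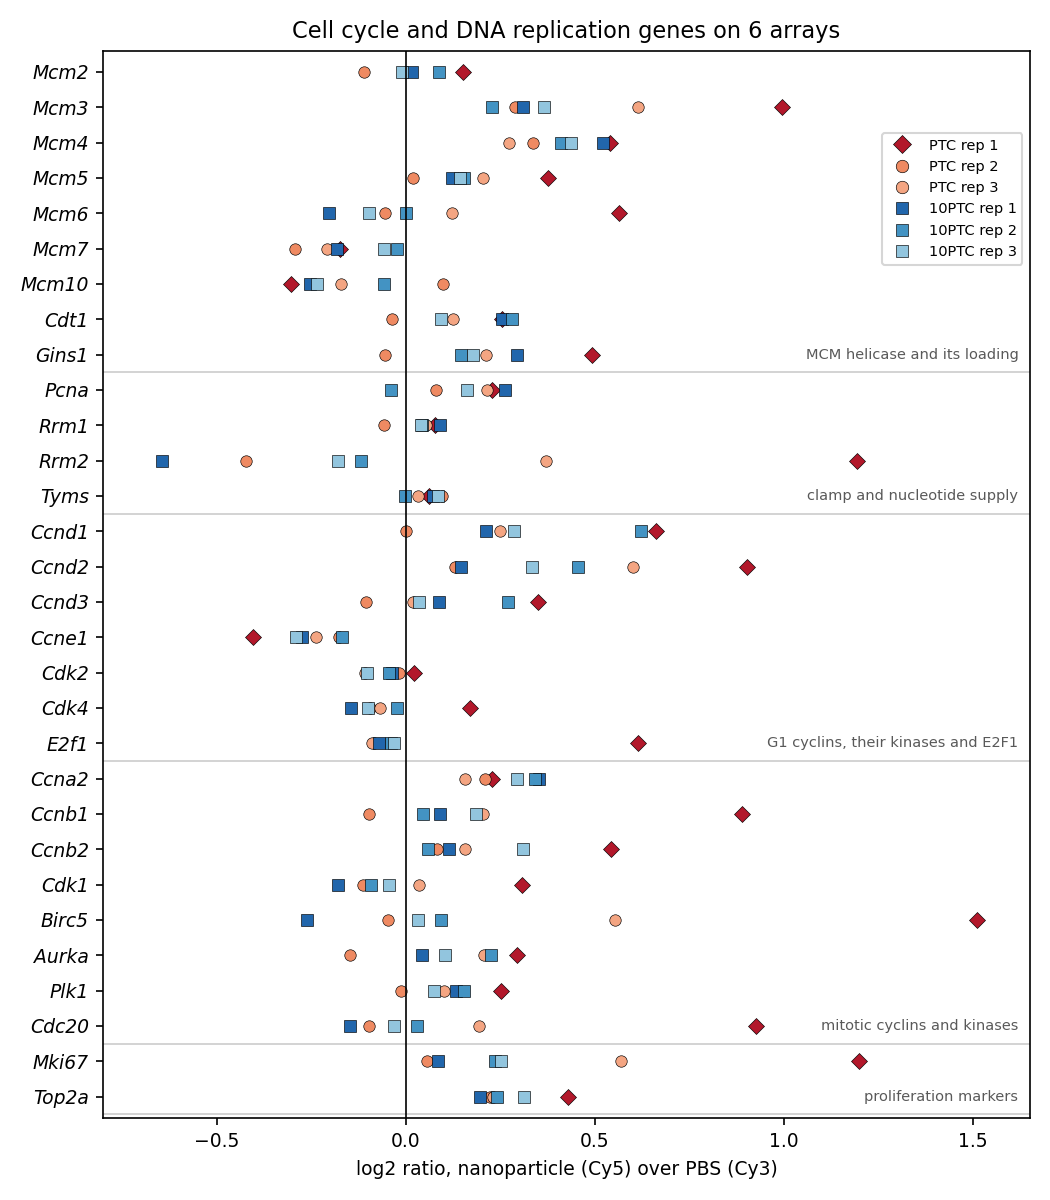
Log2 ratio of nanoparticle over PBS (horizontal axis) for the brightest probe of each of the 30 measured genes (rows, in blocks by role) on each of 6 arrays; each point is 1 array. The diamonds of PTC replicate 1 lie farthest right in 22 rows, while the squares of the 10PTC arrays lie between -0.65 and 0.62.

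For 4 of the 12 genes over 0.5 on PTC replicate 1, given here as examples, the high reading was seen in the dye of the nanoparticle pool. Normalised Cy5 signal of Mki67, the antigen used to stain dividing cells, was 9.23 on PTC replicate 1, against 7.64 to 8.14 on the other 5 arrays (log2 units, after loess and Aquantile normalization). Its PBS signal in Cy3 was 8.03 on that array, against 7.55 to 7.83. For Birc5, or survivin, which guides chromosomes in mitosis, Cy5 signal was 9.74 on PTC replicate 1, against 7.74 to 8.57 elsewhere, while its Cy3 signal of 8.23 fell within the range of the others, 7.97 to 8.36. Rrm2, the regulated subunit of ribonucleotide reductase, had a Cy5 signal of 8.75 on that array, against 6.87 to 7.77, and a Cy3 signal of 7.55, against 7.40 to 7.70. Cdc20, which activates the ligase that ends metaphase, had a Cy5 signal of 9.08, against 8.13 to 8.44, and a Cy3 signal of 8.15, against 8.20 to 8.54. For these 4 genes the nanoparticle signal on PTC replicate 1 lay above the 5 other arrays without overlap, and the PBS signal did so for Mki67 alone. The PBS signal of Cdc20 lay below the other arrays, which adds to its ratio. PTC replicates 1 and 2, which share a slide, both read above the other slide in Cy3 for Birc5 (8.23 and 8.36, against 7.97 to 8.03). The same held for Mki67 and Rrm2 but not for Cdc20. The part of the slide in these signals was not tested. Among the rest of the 12, Cy5 of Ccnd1 was 11.45 there, against 10.78 to 11.58, and the others were highest there in Cy5. Cy3 there lay above the other arrays for Ccnb2 and Ccnd2 and below them for Mcm6 and E2f1.

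**Figure D2:**
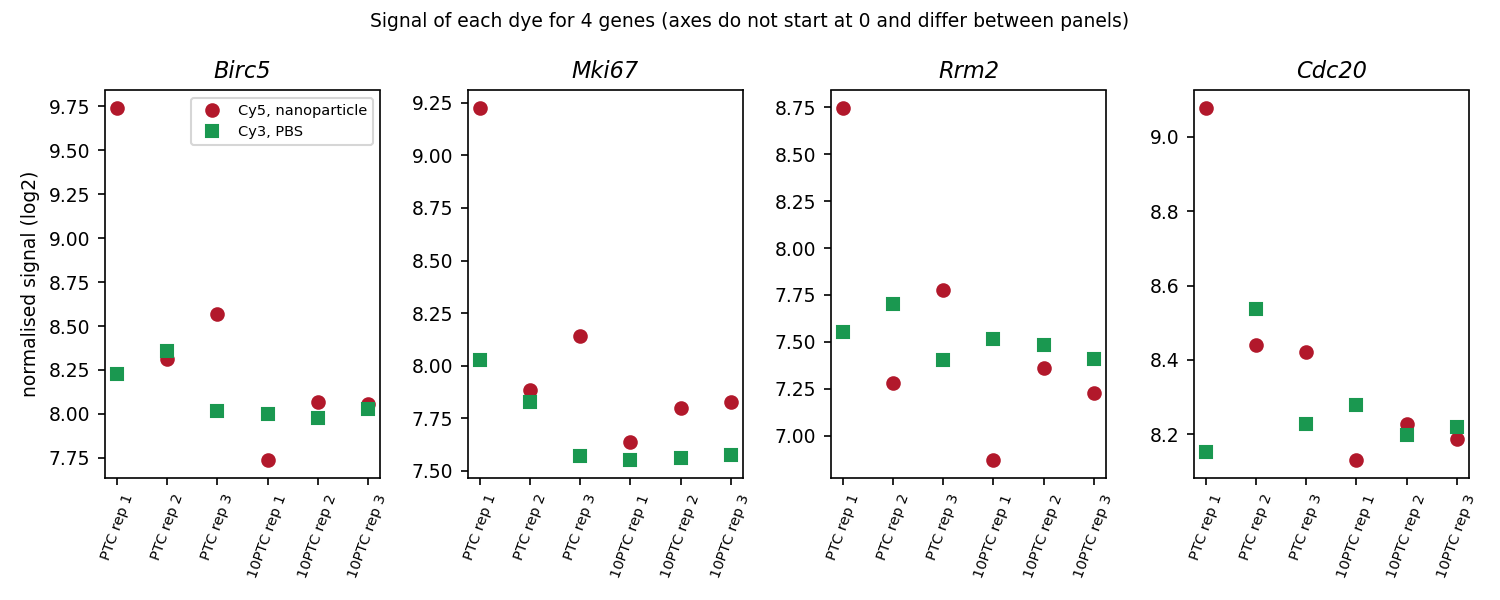
Normalised log2 signal (vertical axis, a log scale that differs between panels and does not start at 0) of the nanoparticle pool in Cy5 (circles) and of PBS RNA in Cy3 (squares) for Birc5, Mki67, Rrm2 and Cdc20 on each of 6 arrays. The Cy5 point of PTC replicate 1 is the highest in each panel, at 9.74, 9.23, 8.75 and 9.08.

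Other probes of the same genes were also high on PTC replicate 1. The ratios of the 3 Birc5 probes there were 1.51, 0.71 and 0.72, those of the 2 Mki67 probes were 1.20 and 1.61, and those of the 2 Mcm3 probes were 0.99 and 1.04. On that array both probes of Mki67 and Mcm3 were above background in both dyes, while Birc5 probes other than the brightest had PBS signal in Cy3 not well above background. The Cdk1 probes did not move together: they read 0.31, 0.70 and -0.11 on that array, and none of them was well above background in Cy3 there, the last in neither dye. The 3 Ccnb1 probes read 0.89, 0.29 and 0.03, where both lower readings came from probes well above background in neither dye on that array.

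Markers of other cells differed on the same array. The median of 12 microglia and macrophage genes, all measured, was 1.32 on PTC replicate 1, against 0.57 and 0.98 on the other PTC arrays and 0.66 to 0.92 on the 10PTC arrays. The median of 8 Muller glia and astrocyte genes was 0.63 there, against 0.20 to 0.45. Of 6 neutrophil genes, 5 were measured, with a median of 0.08 against -0.18 to 0.16; S100a9, an alarm protein of neutrophils, read 2.55 there and -0.66 to 0.66 elsewhere, while Elane, the neutrophil elastase, read -0.05 against -0.09 to 0.06. The median of 7 rod genes was -0.27, against 0.03 to 0.37. That of 6 pigment epithelium genes was 0.47, against 0.08 to 0.28, and that of 6 fibroblast and sclera genes was -0.04, against -1.37 to -0.19. PTC replicate 2, the array with the lowest median of the cell cycle genes, also had the lowest median of the microglia genes and the highest of the rod genes. The part of these cells in the values of the cell cycle genes was not tested, and in pooled tissue more cells of a type and more RNA per cell cannot be told apart.

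Sequences just before the gene starts are shown for 3 genes that were high on PTC replicate 1, because each holds letters that cell cycle factors are known to bind. They cover the 150 bases before the start, 5′ to 3′ in the direction of the gene, from RefSeq on build GRCm38.p6. Capitals mark the E2F letters TTCGCGC or TTGGCGC or TTCCCGC or TTGCCGC, the cell cycle homology region TTTGAA and the CCAAT box CCAAT, on either strand, and where matches overlap they form a single run, as in Ccnb1. The Mki67 stretch lies at chr7:135716380-135716529, that of Ccnb1 at chr13:100786487-100786636 and that of Cdc20 at chr4:118437344-118437493, each on the minus strand.
Mki67 promoter: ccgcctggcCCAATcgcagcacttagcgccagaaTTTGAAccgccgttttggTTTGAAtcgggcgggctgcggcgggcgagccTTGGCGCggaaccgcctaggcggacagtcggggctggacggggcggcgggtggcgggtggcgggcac
Ccnb1 promoter: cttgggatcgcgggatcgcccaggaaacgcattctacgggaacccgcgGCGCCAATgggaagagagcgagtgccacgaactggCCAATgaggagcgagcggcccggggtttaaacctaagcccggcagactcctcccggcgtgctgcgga
Cdc20 promoter: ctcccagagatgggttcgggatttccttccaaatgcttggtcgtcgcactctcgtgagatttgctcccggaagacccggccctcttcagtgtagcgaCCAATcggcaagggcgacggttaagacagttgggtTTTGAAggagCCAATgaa

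A promoter of 300 bases, 250 before the start and 50 after it, was matched for 27 of the 34 genes. The E2F letters were in 12 of the 27 (44.4%), against 9.69% of 27025 genes with a promoter. The CCAAT box was in 19 (70.4%), against 37.9%, and the cell cycle homology region was in 8 (29.6%), against 18.1%. Matches of different kinds overlapped in 3 places. Among the 12 genes over 0.5 on PTC replicate 1, 9 had a promoter and 5 of these held the E2F letters, against 6 of 16 among the other measured genes. The split was made on measured values and is a description, as is each match.

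**Figure D3:**
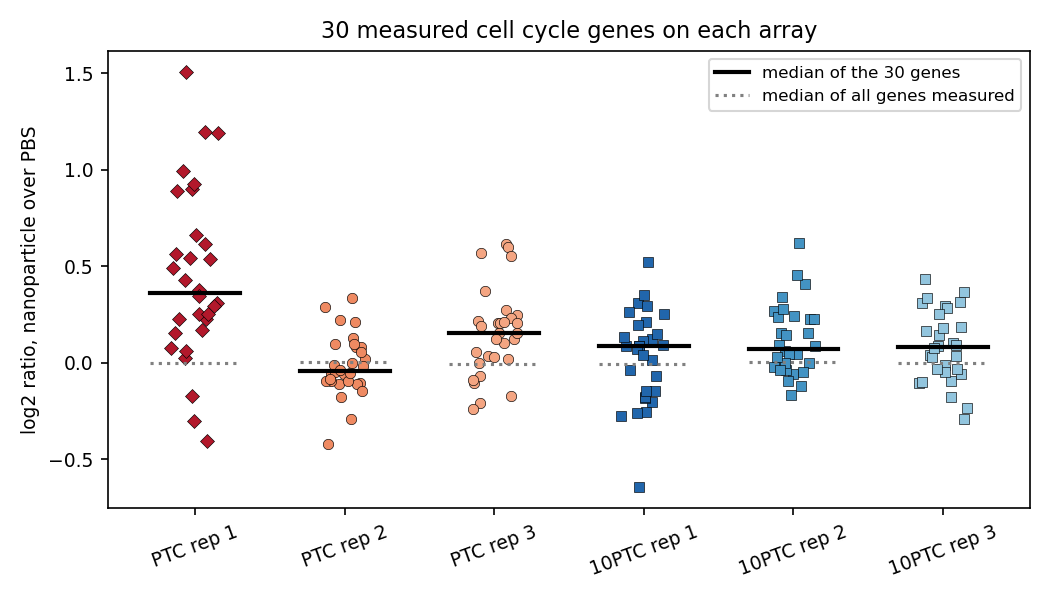
Log2 ratios of nanoparticle over PBS (vertical axis) for the 30 measured genes on each of 6 arrays, with their median (solid line) and the median of all 26215 gene names (dotted line, near 0); points are genes, spread sideways for clarity. The median of the 30 genes is 0.36 on PTC replicate 1, -0.04 on PTC replicate 2 and 0.07 to 0.16 on the other 4 arrays.

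At the PTC dose against PBS, 6 of 30 genes rose (Mcm3, Mcm4, Ccna2, Ccnd2, Mki67 and Top2a) and 2 fell (Mcm7 and Ccne1) in the limma fit. Over all gene names, 16.9% were called higher and 16.3% lower (33.1% together), so the count of higher genes, 6 of 30, was near the background. The median of the 30 was 0.19 and 26 of them lay above 0, against a median of -0.00078 and 49.8% over all gene names. At 10PTC against PBS, 4 rose (Mcm4, Ccna2, Top2a and Cdt1) and 1 fell (Ccne1), while 14.5% of all gene names were called higher and 13.3% lower (27.8% together), and the median was 0.11. The 4 higher genes of 30 were near the background share. Top2a entered the tests through the nanoparticle channel alone, its PBS signal being at background on most arrays, and without it 5 of 29 genes rose at PTC and 3 at 10PTC. Both comparisons use the PBS control RNA, so their values are given side by side and their overlap is no result.

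The PTC count rested on single arrays. Without PTC replicate 1, 4 genes rose and 2 fell, the median of the 30 was 0.05, and 12.3% and 11.9% of all gene names were called; Mki67 (0.31, limma adjusted p = 0.080) and Ccnd2 (0.36, limma adjusted p = 0.056) no longer passed. Leaving out PTC replicate 2 gave 18 calls (14.7% of all gene names higher and 13.8% lower), and leaving out PTC replicate 3 gave 5 (9.72% and 9.43%). The 10PTC count of 5 became 9 without PTC replicate 1 (18.3% of all gene names higher and 16.6% lower) and 9 without PTC replicate 2 (16% and 14.3%). It became 2 without 10PTC replicate 1 (2.95% and 2.25%), 3 without replicate 2 (10.5% and 9.39%) and 2 without replicate 3 (3.33% and 2.72%). With the mean of both doses against PBS, 13 genes rose and 2 fell, where 24.3% of all gene names were called higher and 23.5% lower (47.7% together); the 13 include Top2a. The 15 calls became 9 without PTC replicate 3 (20.4% of all gene names higher and 19.3% lower) and 8, 9 and 9 without 10PTC replicates 1, 2 and 3 (17.8% to 21.2% higher and 16.6% to 20.9% lower). Leaving out PTC replicate 1 or PTC replicate 2 gave up to 19 calls (23.5% or 23.6% higher and 22.4% or 22.5% lower). Besides the genes called at PTC, those that rose were Mcm5, Pcna, Ccnb2, Ccnd1, Plk1, Cdt1 and Gins1, with means of 0.12 to 0.34. Centring each array on its median in place of loess raised the count of higher genes to 19 at PTC and 14 at 10PTC, with none called lower, where 31.4% and 36.9% of all gene names were called higher and 16.1% and 19.2% lower. Under that scaling 66.0% of the calls over all gene names at PTC were higher, against 50.9% under loess, and at 10PTC 65.8%, against 52.2%.

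Of the 10 genes of the helicase and its loading, 9 were measured, of which 2 rose and 1 fell at PTC, with a median of 0.20, and 2 rose at 10PTC, with a median of 0.14. With the mean of both doses 5 of the 9 rose, 1 fell and 7 lay above 0. Over all gene names the shares called higher and lower were 16.9% and 16.3% at PTC and 14.5% and 13.3% at 10PTC. For the mean of both doses they were 24.3% and 23.5%. Counts in the groups below stand against the same shares, and each group holds few genes. Mcm4, a subunit of the helicase ring, read 0.54, 0.34 and 0.27 on the PTC arrays and 0.52, 0.41 and 0.44 on the 10PTC arrays. All 6 lay above 0 and the doses overlapped; the means were 0.38 ± 0.14 at PTC and 0.46 ± 0.06 at 10PTC (SD, n = 3 each), with limma adjusted p of 0.0040 and 0.0032. Mcm4 at 10PTC passed under every processing setting tried, and at PTC under all but each slide alone.

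Mcm3, another ring subunit, read 0.99, 0.29 and 0.61 on the PTC arrays and 0.31, 0.23 and 0.37 on the 10PTC arrays. PTC replicates 1 and 3 were above all the 10PTC arrays, and replicate 2 was among them. The mean was 0.63 ± 0.35 at PTC (SD, n = 3; limma adjusted p = 0.0064), a 1.55-fold rise, and 0.30 ± 0.07 at 10PTC, which did not pass (limma adjusted p = 0.085). Its second probe read nearly the same, 0.61 ± 0.40 and 0.33 ± 0.04, with limma adjusted p of 0.010 and 0.088. Without PTC replicate 1 the PTC mean of the brighter probe was 0.45, and it passed (limma adjusted p = 0.010).

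Mcm7, from the same ring, went the other way. It read -0.17, -0.29 and -0.21 on the PTC arrays and -0.18, -0.02 and -0.06 on the 10PTC arrays. All 6 lay below 0 and the doses overlapped. The PTC mean of -0.23 ± 0.06 passed (SD, n = 3; limma adjusted p = 0.013), and the 10PTC mean of -0.09 ± 0.08 did not (limma adjusted p = 0.21). With median centring the PTC mean was -0.06 and did not pass, and the 10PTC mean was 0.13 and passed as higher (limma adjusted p = 0.048), so its direction depended on the scaling.

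The remaining ring subunits did not pass at either dose. Mcm2 lay between -0.11 and 0.15 on the 6 arrays, Mcm5 between 0.02 and 0.37, and Mcm6 between -0.20 and 0.56. Mcm6 was above 0.2 on PTC replicate 1 alone. Mcm10, which helps to start the forks, lay between -0.30 and 0.10 and was lowest on PTC replicate 1, unlike most of the set. Cdt1, which loads the ring, read 0.25, -0.04 and 0.12 on the PTC arrays and 0.25, 0.28 and 0.09 on the 10PTC arrays. It just passed at 10PTC (0.21 ± 0.10, SD, n = 3; limma adjusted p = 0.049) and did not with the scanner software's ratio (limma adjusted p = 0.11) or when any 10PTC array was left out (limma adjusted p = 0.093 to 0.22). Gins1, of the GINS complex that completes the helicase, lay between -0.05 and 0.49 and did not pass at either dose. Cdc6, a loading factor, had 2 probes, of which 1 was above background on 1 of 6 arrays and the other on none, so it was not tested.

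No gene of the clamp and nucleotide group passed at either dose. Pcna read 0.23, 0.08 and 0.21 on the PTC arrays and 0.26, -0.04 and 0.16 on the 10PTC arrays, with means of 0.17 ± 0.08 and 0.13 ± 0.15 (SD, n = 3 each; limma adjusted p = 0.073 and 0.17). Rrm1, the catalytic subunit of ribonucleotide reductase, lay between -0.06 and 0.09, and Tyms, which makes thymidylate, reached at most 0.09. Rrm2, the partner of Rrm1, had the widest range of the 30 genes: 1.19, -0.42 and 0.37 on the PTC arrays and -0.65, -0.12 and -0.18 on the 10PTC arrays. Its PTC arrays lay on both sides of 0, and all its 10PTC arrays lay below 0, with means of 0.38 ± 0.81 and -0.31 ± 0.29 (SD, n = 3 each; limma adjusted p = 0.29 and 0.39).

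Among the G1 genes, 7 of 8 were measured; Ccnd2 rose and Ccne1 fell at PTC, and Ccne1 fell at 10PTC, with medians of 0.09 and -0.05. Ccnd2, cyclin D2, read 0.90, 0.13 and 0.60 on the PTC arrays and 0.15, 0.46 and 0.33 on the 10PTC arrays. All were above 0, and PTC held both the highest and the lowest. The means were 0.54 ± 0.39 (limma adjusted p = 0.018) and 0.31 ± 0.16 (SD, n = 3 each; limma adjusted p = 0.11), and the PTC call was also lost without PTC replicate 3 (0.52, limma adjusted p = 0.080).

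Ccnd1, cyclin D1, read 0.66, 0.00 and 0.25 at PTC and 0.21, 0.62 and 0.28 at 10PTC, with limma adjusted p of 0.097 and 0.060. Its level thus varied widely within each dose. Ccnd3, cyclin D3, lay between -0.11 and 0.35 at its brightest probe and did not pass, whereas its other probe passed at 10PTC (0.30 ± 0.09, SD, n = 3; limma adjusted p = 0.020). Cdk2 lay between -0.11 and 0.02. The brightest of 3 Cdk4 probes lay between -0.15 and 0.17, and no Cdk4 probe passed at either dose; their means at 10PTC were -0.09, -0.08 and 0.09. E2f1, the transcription factor released by the G1 kinases, read 0.61 on PTC replicate 1 and -0.09 to -0.03 on the other 5 arrays. Its PTC mean of 0.15 ± 0.41 came from that array alone (SD, n = 3; limma adjusted p = 0.40; -0.09 without it).

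Ccne1, cyclin E1, had 2 probes whose ratios lay on opposite sides of 0, the dimmer one against a PBS signal at background on all but 1 array. The array design places the brighter at base 1874 of the transcript and at chr7:38882937-38882960 of mm9 on the minus strand, an interval of 24 bases for a probe of 60, and the dimmer at base 741 and chr7:38885574-38885633 on the same strand. No exon annotation of that build was used here. Both sequences are shown because the gene's direction turns on them, with G and C in capitals; of the brighter probe the first 30 bases are given.
Ccne1 probe at base 741: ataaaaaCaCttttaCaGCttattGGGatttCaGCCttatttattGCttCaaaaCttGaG
Ccne1 probe at base 1874: GCatGtCCtGCCttCatGaaCtCttatttt

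The brighter probe read -0.41, -0.18 and -0.24 on the PTC arrays and -0.28, -0.17 and -0.29 on the 10PTC arrays, and fell at both doses, with means of -0.27 ± 0.12 (limma adjusted p = 0.0098) and -0.25 ± 0.07 (SD, n = 3 each; limma adjusted p = 0.018). The dimmer probe was above background in Cy5 on 6 of 6 arrays but in Cy3 on 1, at 10PTC, so it passed the filter through the nanoparticle channel. Its ratios were 1.07, 0.48 and 0.34 on the PTC arrays and 0.49, 0.40 and 0.56 on the 10PTC arrays, with means of 0.63 ± 0.39 and 0.48 ± 0.08 (SD, n = 3 each). At PTC its PBS signal was well above background on no array, so its fold there is rough. A floored fold over PBS was 1.52, near the fitted 1.55-fold (limma adjusted p = 0.0086). This floored fold is the mean Cy5 signal over a Cy3 value, both after loess and Aquantile normalization. On each array that value is the probe's own Cy3 signal or the lowest Cy3 signal well above background of any probe, whichever is higher. The lowest signal of any probe is no detection limit for this probe. The floored fold is thus no lower limit, and it is open to dye bias. The fitted PTC mean of 0.63 became 0.41 without PTC replicate 1 and 0.52 with median centring. At 10PTC the fit gave a limma adjusted p of 0.026, which no longer passed with the scanner software's ratio, offset 0, median centring, the authors' ratios or the slide as a block, nor when any 10PTC array was left out. All 6 arrays were below 0 for the brighter probe and above 0 for the dimmer, and PTC replicate 1 was the extreme array of both. The dimmer probe exceeded the brighter by 0.82 ± 0.34 (SD, n = 6 arrays), from 0.57 to 1.48, a description given the dimmer probe's PBS signal.

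The difference between the probes kept its sign under each processing setting tried, with means from 0.44 (median centring) to 2.21 (the scanner software's ratio). The brighter probe was above background in both dyes on 6 of 6 arrays. The fall of the brighter probe was not called with median centring (-0.10 at PTC and -0.04 at 10PTC, limma adjusted p = 0.17 and 0.57). It did not pass at 10PTC without 10PTC replicate 1 or replicate 3, or with the slide as a block. Ccne2, cyclin E2, was above background in Cy5 on 1 array and in Cy3 on none, and was not tested.

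**Figure D4:**
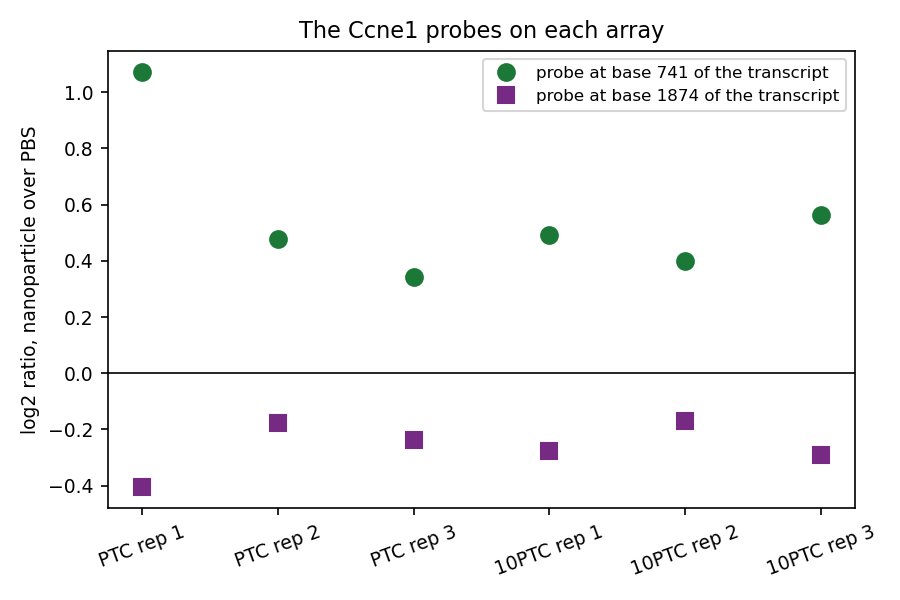
Log2 ratio of nanoparticle over PBS (vertical axis) for the 2 probes of Ccne1 on each of 6 arrays; each point is 1 array. The probe at base 741 (circles) lies between 0.34 and 1.07 and the probe at base 1874 (squares) between -0.41 and -0.17.

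Of the 10 mitotic genes, 8 were measured, and cyclin A2 was the only one to pass, at both doses. Ccna2 read 0.23, 0.21 and 0.16 on the PTC arrays and 0.35, 0.34 and 0.29 on the 10PTC arrays. All were above 0, and the doses did not overlap. The means were 0.20 ± 0.04 (limma adjusted p = 0.011) and 0.33 ± 0.03 (SD, n = 3 each; limma adjusted p = 0.0029). The 10PTC call held under every processing setting tried, while the PTC call was lost within each slide alone and when PTC was fitted alone.

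The other mitotic genes mostly followed PTC replicate 1. Birc5 read 1.51, -0.05 and 0.55 on the PTC arrays and -0.26, 0.09 and 0.03 on the 10PTC arrays, with means of 0.67 ± 0.79 (limma adjusted p = 0.068) and -0.05 ± 0.19 (SD, n = 3 each; limma adjusted p = 0.91). Cdc20 read 0.93, -0.10 and 0.19 on the PTC arrays and -0.15, 0.03 and -0.03 on the 10PTC arrays. Ccnb1, cyclin B1, read 0.89, -0.10 and 0.20 on the PTC arrays and 0.09, 0.04 and 0.18 on the 10PTC arrays. In each of these 3 genes PTC replicates 1 and 3 were above all the 10PTC arrays and PTC replicate 2 was not. Without PTC replicate 1 the PTC means were 0.25 for Birc5, 0.05 for Cdc20 and 0.05 for Ccnb1. Ccnb2, cyclin B2, lay between 0.06 and 0.54, Cdk1 between -0.18 and 0.31, Aurka between -0.15 and 0.29, and Plk1 between -0.01 and 0.25, and none of the 4 passed at either dose. Aurkb, the kinase partner of survivin, and Bub1, a spindle checkpoint kinase, were above background on no array in either channel.

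Of the proliferation markers, Mki67 rose at PTC, and Top2a had a PBS signal at background there. Mki67 read 1.20, 0.06 and 0.57 on the PTC arrays and 0.09, 0.24 and 0.25 on the 10PTC arrays. All were above 0, and PTC held the highest and the lowest. The mean was 0.61 ± 0.57 at PTC (SD, n = 3; limma adjusted p = 0.034), a 1.52-fold rise, and 0.19 ± 0.09 at 10PTC (SD, n = 3; limma adjusted p = 0.45). The PTC call was lost when any array other than PTC replicate 2 was left out, and its second probe did not pass (0.64 ± 0.90, SD, n = 3; limma adjusted p = 0.11).

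Top2a, which untangles DNA before division, read 0.43, 0.22 and 0.23 on the PTC arrays and 0.20, 0.24 and 0.31 on the 10PTC arrays. All were above 0 and the doses overlapped. The means were 0.29 ± 0.12 and 0.25 ± 0.06 (SD, n = 3 each). Its probe was above background in Cy5 on 5 arrays and in Cy3 on 1, and passed the filter through the nanoparticle channel. At PTC Cy3 was not well above background on any array, and on PTC replicate 2 neither dye was. Its floored fold over PBS at PTC, as described for Ccne1, was 1.08, and the fit gave a limma adjusted p of 0.0073. At 10PTC, where Cy3 was above background on 1 of 3 arrays, the fit gave a limma adjusted p of 0.016. With median centring its mean was 0.10 at PTC and -0.10 at 10PTC, neither called, so its direction at 10PTC depended on the scaling.

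In the direct comparison of 10PTC with PTC, limma called none of the 30 genes and none of 26215 gene names (0%), of which 2130 had an unadjusted p under 0.05. The median difference of the 30 was -0.04, with 11 above 0. For Rrm2 it was -0.70 (95% confidence interval -1.54 to 0.15), for Birc5 -0.72 (-1.51 to 0.08), for Mki67 -0.42 (-0.99 to 0.16) and for Ccna2 0.13 (-0.004 to 0.27). These intervals span 0 and leave room for sizeable differences in the first 3. The second Cdk1 probe, at -0.44 (-0.86 to -0.03), had an interval below 0 but did not pass (limma adjusted p = 0.61). Ccna2 was the only 1 of the 30 genes whose 10PTC arrays lay wholly above its PTC arrays, and none lay wholly below, where 8.91% and 6.6% of all gene names did so.

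The spread among arrays also differed between the doses. The PTC arrays lay on 2 slides and all 10PTC arrays on a single slide, so slide and dose cannot be told apart in this spread. The median SD of the 30 genes was 0.07 at 10PTC and 0.21 at PTC, while over all gene names it was 0.07 and 0.10. The SD was larger at PTC in 27 of 30 genes (90.0%), against 63.9% of all gene names. In 23 of the 30 (76.7%) PTC replicate 1 was highest, replicate 3 next and replicate 2 lowest of the PTC arrays, against 22.7% of all gene names. The genes thus shared an order of pools, and Mcm10, Ccne1, Tyms, Ccna2, Mcm4, Cdk2 and E2f1 were those that did not follow it.

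Other genes of the cycle were listed by role, and their counts stand against the same 16.9% higher and 16.3% lower at PTC and 14.5% and 13.3% at 10PTC over all gene names. The measured genes named from these lists were all picked by their values. Some were picked after their values were seen, because they make up a small count or lacked PBS signal. These are Lig1, Pold1, Fen1, Cdc7, Pole2, Aspm, Nusap1, Nuf2, Cdkn2a, Pttg1, Incenp, Cdkn2c, Rbl2, Pkmyt1 and Mycn. The others were those of smallest p in their list for the mean of both doses. Their small p-values and calls follow in part from that choice and do not speak for the lists. Of 38 further replication genes, all measured, 11 rose and 2 fell at PTC and 8 rose and 3 fell at 10PTC, with medians of 0.07 and 0.03. The 8 include Pole2, a polymerase subunit whose PBS signal was above background on no array. Gmnn, geminin, which binds Cdt1 and blocks its action, rose at both doses (0.46 and 0.34, limma adjusted p = 0.0026 and 0.0084). Chaf1a, a chromatin assembly subunit, rose by 0.28 and 0.18 (limma adjusted p = 0.0045 and 0.021), Rfc3, a clamp loader subunit, by 0.36 and 0.27 (limma adjusted p = 0.0053 and 0.018) and Gins4 by 0.20 and 0.22 (limma adjusted p = 0.011 and 0.0095). Rfc3 read 0.31 to 0.40 on the PTC arrays with replicate 1 the lowest, and Gins4 read 0.18 to 0.26 on all 6 arrays. A pick by smallest p favours such even values, so they do not speak for the list. The list's median was 0.10 on PTC replicate 1, against 0.01 to 0.07 on the other arrays. Among the genes that fell were Lig1 (DNA ligase, -0.14) and Pold1 (a polymerase subunit, -0.15) at PTC, and Fen1 (a flap nuclease, -0.17) and Cdc7 (a kinase that starts replication, -0.22) at 10PTC.

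Of 32 mitosis genes, 29 were measured (not Kif23, Cenpf and Ttk); 8 rose and 1 fell at PTC, and 5 rose and 1 fell at 10PTC, with medians of 0.19 and 0.07. Aspm, Kif11 and Nusap1, spindle proteins that count among the 8, passed the filter through the nanoparticle channel, with Cy3 above background on 1 of 6 arrays each and on none at PTC, as did Nuf2, which was not called at PTC. The list's median was 0.31 on PTC replicate 1, against 0.02 to 0.20 on the other arrays. Cenpe, a kinetochore motor, read 0.90, 0.63 and 0.55 on the PTC arrays and 0.53, 0.44 and 0.57 on the 10PTC arrays (limma adjusted p = 0.0011 and 0.0035). Kif11, a spindle motor, had a floored fold over PBS of 1.24 at PTC, as described above (fitted mean 0.32, limma adjusted p = 0.0023). Cy5 was well above background on 2 of the PTC arrays, and on the remaining PTC array neither dye was. At 10PTC Kif11 had 0.07 (limma adjusted p = 0.24). Bub1b, of the spindle checkpoint, rose by 0.36 and 0.39 (limma adjusted p = 0.020 and 0.019), while Foxm1, a factor that switches on mitotic genes, fell, with -0.18 and -0.24 (limma adjusted p = 0.029 and 0.014). At 10PTC the others called higher were Pttg1 and Incenp, by 0.13 and 0.15, and Aspm at 0.31, whose Cy3 was above background on 1 of 3 arrays there.

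Of 10 cell cycle inhibitors and pocket proteins, 6 rose and 2 fell at PTC and 4 rose and 1 fell at 10PTC, with medians of 0.18 and 0.21. The 6 include Cdkn2a, whose PBS signal was above background on no array. Cdkn1a, or p21, which blocks cyclin-dependent kinases, read 1.13, 0.10 and 0.39 on the PTC arrays and 0.54, 0.62 and 0.65 on the 10PTC arrays. All were above 0, PTC replicate 1 was again the highest, and both means passed (0.54 and 0.60, limma adjusted p = 0.039 and 0.032). Cdkn1b, or p27, a related inhibitor, rose by 0.19 and 0.21 (limma adjusted p = 0.024 and 0.020), and Rbl1, a pocket protein that binds E2F factors, rose by 0.24 and 0.34 (limma adjusted p = 0.019 and 0.0078). Cdkn2d, an inhibitor of Cdk4, fell, with -0.23 at each dose (limma adjusted p = 0.0060 and 0.0084). Cdkn2c, of the same kind, fell at PTC with -0.23, and Rbl2, a pocket protein, rose at 10PTC by 0.22.

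Among 9 E2F and DP genes, 2 rose at PTC and 3 rose and 1 fell at 10PTC, with medians of 0.10 and 0.02. E2f6, a repressor of the family, read 1.04, 0.30 and 0.43 on the PTC arrays and 0.76, 0.83 and 0.80 on the 10PTC arrays, and E2f5, another repressor, read 0.25 to 0.29 and 0.14 to 0.52. Both rose at both doses (E2f6 limma adjusted p = 0.011 and 0.0053, E2f5 limma adjusted p = 0.021 and 0.013). Tfdp1, the partner of E2F factors, rose at 10PTC (0.34, limma adjusted p = 0.0082) with 0.17 at PTC (limma adjusted p = 0.062), and E2f3 fell at 10PTC by 0.18 (limma adjusted p = 0.032) with -0.13 at PTC (limma adjusted p = 0.086).

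Of 13 other kinases and cyclins, 11 were measured (not Cdk6 and Ccnb3); 2 rose and 2 fell at PTC and 3 rose and 1 fell at 10PTC, with medians of -0.02 and 0.01. Skp2, which marks p27 for breakdown, rose by 0.36 and 0.40 (limma adjusted p = 0.012 and 0.010), and Cdk7, which activates other cyclin-dependent kinases, by 0.29 and 0.30 (limma adjusted p = 0.039 and 0.038). Ccnf, cyclin F, fell at PTC by 0.33 (limma adjusted p = 0.0021) and had -0.05 at 10PTC (limma adjusted p = 0.40). Wee1, which holds Cdk1 inactive, fell at 10PTC by 0.22 (limma adjusted p = 0.012) and had -0.13 at PTC (limma adjusted p = 0.064). Pkmyt1, which also inhibits Cdk1, fell at PTC by 0.17, and Mycn, a transcription factor of the Myc family, rose at 10PTC by 0.23.

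Markers of other cell types were listed in the same way. Of 12 microglia and macrophage genes, 10 rose at each dose, with medians of 0.94 and 0.82; the brightest, Itgam and Csf1r, rose by 0.33 and 0.64 at PTC and by 0.28 and 0.40 at 10PTC. Of 8 Muller glia and astrocyte genes, 5 rose and 1 fell at PTC and 6 rose and 1 fell at 10PTC: Apoe, a lipid carrier, rose by 0.67 and 0.86, and Glul, glutamine synthetase, fell, with -0.64 and -0.61. Of 7 endothelial and pericyte genes, 1 rose and 1 fell at PTC and 1 rose at 10PTC; Kdr had 0.34 and 0.25, neither called, and Cldn5 fell by 0.31 at PTC and had 0.07 at 10PTC. The limma adjusted p of these calls lay between 0.0019 and 0.019. Picked after their values were seen, Gfap, the filament protein of reactive glia, Vim, Slc1a3 and Sox9 were the other glial genes that rose at PTC, by 1.61, 0.85, 0.44 and 0.28, and Rgs5, a pericyte gene, was the vascular gene that rose, by 0.37 and 0.48.

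Of 8 lymphocyte genes, 6 were measured (not Cd3g and Ms4a1), and 1 rose and 1 fell at PTC and 2 fell at 10PTC; Cd3e fell, with -0.28 and -0.46, and Cd4 had -0.10 at PTC and fell by 0.27 at 10PTC (limma adjusted p of the falls 0.012, 0.0033 and 0.019). None of 5 measured neutrophil genes (of 6, not Ngp) passed at PTC and 1, Mpo, rose at 10PTC by 0.16. Of 7 rod genes, 2 rose at each dose, with medians of 0.02 and 0.11; Gnat1 and Nrl, the brightest, had 0.02 and -0.07 at PTC and 0.17 and 0.05 at 10PTC, none called, and those that rose were Cnga1 (0.56 and 0.44) and Sag (0.88 and 0.55). Of 6 pigment epithelium genes, 3 rose at PTC and 2 rose and 1 fell at 10PTC; Rpe65 had 0.09 at PTC and fell by 0.32 at 10PTC (limma adjusted p = 0.0099), and Lrat and Tyrp1 rose at both. Lck made up the lymphocyte rise, at 0.27. Mpo, Cnga1, Sag, Lrat, Tyrp1 and Lck were picked after their values were seen.

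Of 7 ocular surface and lens genes, 1 rose and 1 fell at PTC and 1 fell at 10PTC. Cryaa, a lens crystallin, rose by 0.68 at PTC (limma adjusted p = 0.046) and had 0.62 at 10PTC. Crygs had 0.63 and 0.59, not called. Of the keratins, all picked after their values were seen, Krt14 fell at both doses, and Krt12 and Krt5 were called at neither. Krt12 read 3.32, 4.22 and -1.42 on the PTC arrays and -1.50, -0.08 and -1.65 on the 10PTC arrays. Krt5 read 0.51, 0.94 and -2.30 at PTC and -2.38, -0.17 and -1.78 at 10PTC. Of 6 fibroblast and sclera genes, 2 fell at PTC and 6 at 10PTC; Thy1, which retinal ganglion cells also make, fell, with -0.49 and -0.36, and Dcn, decorin, had -0.86 at PTC and fell by 1.44 at 10PTC (limma adjusted p of the falls 0.0075, 0.025 and 0.019). The muscle genes Tnni2 and Myl1 fell, with -3.22 and -3.71 at PTC and -2.71 and -2.76 at 10PTC (limma adjusted p from 0.00033 to 0.0066). The part of any of these cell types in the values of the cell cycle genes was not tested.

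**Figure D5:**
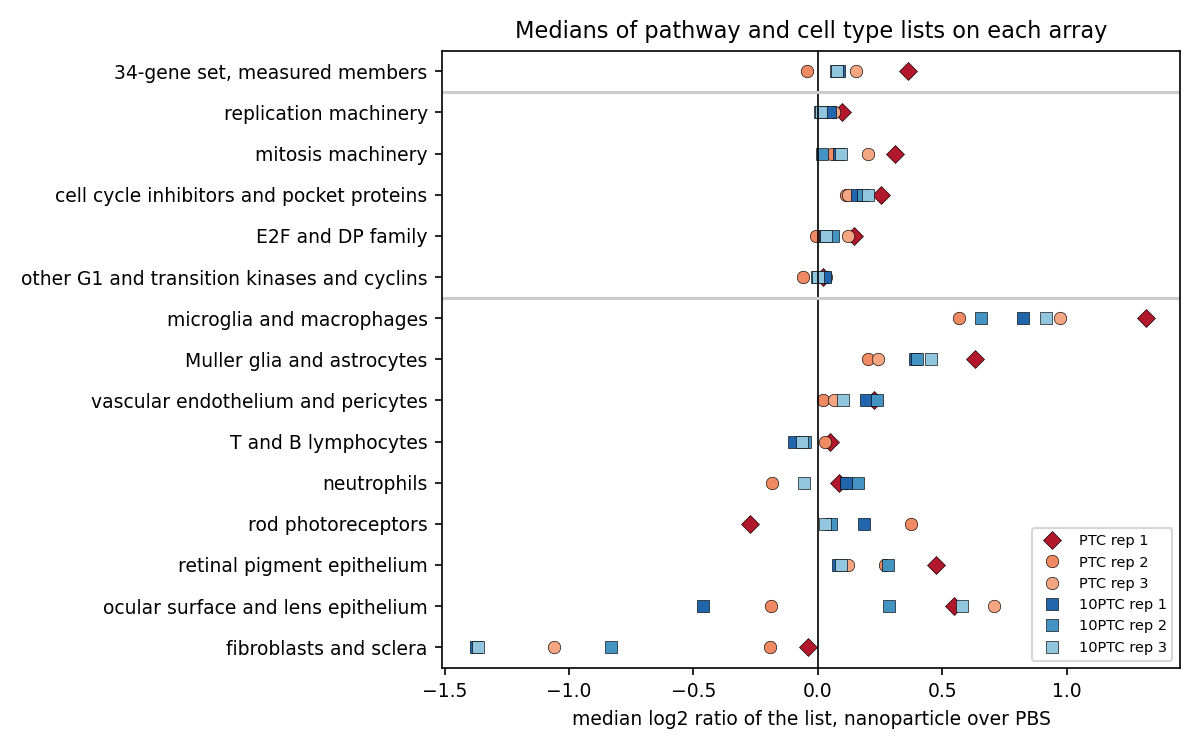
Median log2 ratio of nanoparticle over PBS (horizontal axis) on each of 6 arrays for the 30 measured genes (top row), 5 lists of other cell cycle genes and 9 lists of cell type markers; each point is 1 array, and the skeletal muscle list, at -3.26 to -2.17, is left off the axis. PTC replicate 1 (diamond) is the highest point for the 30 genes at 0.36, for mitosis machinery at 0.31 and for microglia at 1.32. It is also the highest for replication machinery, the inhibitors, E2F and DP genes, Muller glia, lymphocytes, pigment epithelium and fibroblasts. It is the lowest for rods at -0.27.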

How the data were processed

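RNA of pooled retinas was labelled directly with Cy3 (PBS) or Cy5 (nanoparticles) and hybridised to 6 Agilent arrays of design 026655, per the labels' protocols. In the deposited scanner files, spot intensity is held for 2 channels, beside log10 ratios. Feature Extraction 10.7.3.1 with protocol GE2_107_Sep09 made them, per the file headers, although version 9.3.2.1 stands in the submitters' processing notes. A deposited table of the authors' log2 ratios followed the log10 ratios with r of 0.983 to 1.00 and a slope of 3.32, and the sources used here do not give its centring (column medians of -0.08 to 0.04).

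Mean signal and median local background were corrected with normexp (offset 50) and normalized by loess within arrays, giving 1377 control spots weight 0, by limma 3.58.1 (R 4.3.3, with data.table at version 1.17.8). Outlier spots (185 to 274 per array) were left out, spots of a probe were averaged, and 6939 probes were not tested, since they stood well above background in either dye on fewer than 3 of 6 arrays. Median signals were 187 to 347 in Cy5 and 153 to 221 in Cy3, against median backgrounds of 47 to 48 and 26 to 29. A model with a coefficient per dose was fitted over all 32490 probes (4 residual and 3.61 prior degrees of freedom; threshold 0.05), and a gene is given by its brightest tested probe, other probes beside it. The steps were tested on simulated data.

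Every gene of the set is named; of each of 5 pathway lists the 4 genes of smallest p for the mean of both doses, and of each of 10 marker lists the 2 brightest, were named. Some genes that meet this rule are not reported here. The genes and lists were chosen with earlier results of these data known. Replicate numbers were not taken as pairs: the deviations of same-numbered arrays had r of -0.27, 0.14 and 0.18 over 32484 probes. Promoters are from RefSeq (GRCm38.p6), and probe positions are those of the array design on mm9; no genome was used.

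Alternatives were the scanner software's ratio, no background subtraction, offset 0, median centring, 2 other filters, outlier spots kept, a single probe per gene, the authors' ratios, slide or replicate number as a block, each slide or dose alone, and each array left out.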

Additional observations from a re-analysis of the deposited data

How the results depend on the processing

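Calls among the 30 genes numbered 8 at PTC, 5 at 10PTC, 0 between the doses and 15 for the mean of both doses. Shares of all gene names called higher and lower under a setting stand in parentheses. Median centring gave 19 at PTC (31.4% and 16.1%) and 14 at 10PTC (36.9% and 19.2%), with Mcm7 at 0.13 and Top2a at -0.10 at 10PTC and Mcm7 at 0.037, Top2a at -0.00104 and Cdk4 at 0.15 for the mean of both doses, each the opposite sign to loess; the cause was not tested. At 10PTC the scanner software's ratio (8.57% and 8.35%) and the authors' table (9.70% and 7.69%) each gave 3. With the slide as a block, 10PTC gave 2 (2.27% and 1.57%) and the mean of both doses 9 (20.4% and 19.3%). Slide 1 alone, with 2 PTC arrays, gave 0 at PTC (0.629% and 0.496%); slide 2 alone gave 3 at PTC (3.43% and 2.73%), from a lone array assumed to vary like the others, and 12 at 10PTC (18.6% and 16.9%). Fitted alone, PTC gave 5 (9.16% and 9.19%) and 10PTC gave 12 (18.6% and 16.9%). With the replicate block the calls were 7 at PTC (12.9% and 12.4%), 4 at 10PTC (10.1% and 9.12%), 0 between the doses and 15 for the mean (21.2% and 20.1%). Leaving out each array in turn gave 5 to 18 calls at PTC, 2 to 9 at 10PTC, 8 to 19 for the mean, and 0 between the doses. For the Ccne1 probes it gave differences of 0.69 to 0.87. For single genes, the alternatives lost a call 31 times and gained 28 at PTC, 22 and 32 at 10PTC, and 47 and 15 for the mean of both doses. Between the doses no setting called any of the 30 genes. Signal over background limits Top2a, the dimmer Ccne1 probe, Kif11, Aspm, Nusap1, Nuf2, Cdkn2a and Pole2, whose PBS signal was at background on most or all arrays.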
